A study of Mus musculus with 21 samples.

Results

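The nuclear genes of oxidative phosphorylation were described in mouse hearts with a reduced dose of Gata4, a transcription factor of heart muscle, after pressure overload. The members were all genes whose symbol in the platform annotation starts with Ndufa, Ndufb, Ndufc, Ndufs, Ndufv, Uqcr, Cox4 to Cox8 or Atp5, together with Sdha, Sdhb, Sdhc and Sdhd. The rule found 98 symbols, and 88 of them were among the 13279 genes tested. Of the other 10, 8 were read only by probe sets that carry several symbols (Ndufa11, Ndufa11b, Ndufab1-ps, Ndufb4b, Ndufb4c, Ndufs5-ps, Ndufs6 and Ndufs6b), and Cox7b2 and Ndufb4 were too dim, with mean levels of 3.07 and 2.72 on the log2 scale. The 88 tested members comprised 33 subunits of complex I, 8 assembly factors of complex I that the prefix Ndufa also finds, 4 subunits of complex II, 8 of complex III, 18 of complex IV and its associated proteins, and 17 of ATP synthase.

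RNA was measured on 21 arrays in 4 groups: G4D after TAC (n = 6), G4D after sham operation (n = 5), wild type after TAC (n = 6) and wild type after sham operation (n = 4). G4D are gene-targeted mice that carry 1 Gata4 allele without its second exon, in both G4D groups. TAC, transverse aortic constriction, is a ligature around the aorta that puts the left ventricle under pressure, and the sham operation left the aorta alone. The labels name cardiac myocytes as the source and total RNA as the material. They give no age, sex, time after surgery or batch, and nothing beyond the titles says that replicates were separate animals, so p-values measure the spread between these samples, which may be technical.

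Oxidative phosphorylation takes place in the inner membrane of mitochondria. Complexes I and II pass electrons from NADH and succinate to coenzyme Q, complex III passes them on to cytochrome c, and complex IV (cytochrome c oxidase) reduces oxygen, while the protons pumped on the way drive ATP synthase. The heart makes most of its ATP by this pathway, and heart muscle holds muscle forms of some complex IV subunits (Cox6a2, Cox7a1 and Cox8b) beside the widely expressed forms (Cox6a1, Cox7a2 and Cox8a).

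The promoters of 5 members on which the results turn are shown: Cox7a1, the muscle isoform that fell after TAC in both genotypes, its partner Cox7a2, Cox6a1, which rose in G4D, and Sdha and Sdhd of complex II, which fell in G4D. The sequences are from RefSeq on GRCm38.p6, each with 250 bases before and 50 bases after a listed start of the gene, written 5′ to 3′ along the gene's own strand. The Cox7a2 window lies inside the listed span of that gene (chr9:79755241-79771422), so the outer start of Cox7a2 was not searched. Capitals mark matches, on either strand, to the motifs of nuclear respiratory factor NRF1 (GCGCA and GCGC with any base between them), of ETS factors such as GABP (CCGGAAG) and of the estrogen-related receptors (TCAAGGTCA).
Cox7a1 promoter, chr7:30183921-30184220, plus strand: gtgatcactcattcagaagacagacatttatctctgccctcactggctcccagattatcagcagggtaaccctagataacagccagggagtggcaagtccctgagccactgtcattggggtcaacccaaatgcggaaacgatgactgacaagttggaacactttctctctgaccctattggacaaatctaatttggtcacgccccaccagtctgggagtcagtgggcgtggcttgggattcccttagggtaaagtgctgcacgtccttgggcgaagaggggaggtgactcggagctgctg
Cox7a2 promoter, chr9:79759804-79760103, minus strand: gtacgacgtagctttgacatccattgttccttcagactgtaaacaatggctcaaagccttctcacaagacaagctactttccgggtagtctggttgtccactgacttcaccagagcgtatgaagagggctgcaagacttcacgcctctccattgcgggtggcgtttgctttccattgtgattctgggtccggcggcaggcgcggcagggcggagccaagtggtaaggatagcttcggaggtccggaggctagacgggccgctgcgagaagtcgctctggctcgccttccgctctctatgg
Cox6a1 promoter, chr5:115348909-115349208, minus strand: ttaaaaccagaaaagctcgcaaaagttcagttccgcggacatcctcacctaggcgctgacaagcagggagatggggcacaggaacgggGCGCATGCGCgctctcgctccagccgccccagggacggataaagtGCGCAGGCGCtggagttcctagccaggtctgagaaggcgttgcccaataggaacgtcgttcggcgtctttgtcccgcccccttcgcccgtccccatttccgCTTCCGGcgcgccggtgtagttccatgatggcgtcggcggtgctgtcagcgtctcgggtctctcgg
Sdha promoter, chr13:74350191-74350490, minus strand: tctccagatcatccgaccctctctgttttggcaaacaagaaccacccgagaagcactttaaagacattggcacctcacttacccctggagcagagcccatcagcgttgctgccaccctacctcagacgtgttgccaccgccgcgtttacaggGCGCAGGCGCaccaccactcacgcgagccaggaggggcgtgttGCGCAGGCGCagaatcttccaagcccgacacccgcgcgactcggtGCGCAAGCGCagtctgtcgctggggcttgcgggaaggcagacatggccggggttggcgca
Sdhd promoter, chr9:50603800-50604099, minus strand: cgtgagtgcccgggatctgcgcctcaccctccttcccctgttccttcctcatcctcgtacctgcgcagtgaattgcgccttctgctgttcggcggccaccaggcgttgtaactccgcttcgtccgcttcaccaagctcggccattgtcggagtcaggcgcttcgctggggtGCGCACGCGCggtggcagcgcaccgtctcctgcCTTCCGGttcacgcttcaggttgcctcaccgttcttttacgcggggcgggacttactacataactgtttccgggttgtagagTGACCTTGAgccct
Cox6a1 held NRF1 matches that begin at positions -162 and -117 from the start, and an ETS match at -16. Sdha held 3 NRF1 matches, at -98, -55 and -10. Sdhd held 1 match of each kind, at -79 for NRF1, -46 for ETS and 37 for the estrogen-related receptors. The windows of Cox7a1 and Cox7a2 held none of these letters.

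A promoter was listed for 77 of the 98 members. NRF1 matches were found for 19 of these 77 members (24.7%), against 5.19% of all 27025 genes with a listed promoter. ETS matches were also found for 19 members (24.7%), against 9.93% of all genes. The motif of the estrogen-related receptors was found for 2 members, Atp5g3 and Sdhd (2.6%, against 0.466% of all genes). The cyclic AMP response element TGACGTCA was found for 4 members (5.19%, against 2.03%), and the MEF2 motif (CTA and TAG with any 4 bases between them) for 2 members (2.6%, against 4.23%). No matches of different motifs overlapped in the members' windows, and the base composition of the windows was not compared. Of the 13 members with a listed promoter that fell after TAC in G4D, 3 held an NRF1 match (23.1%), beside 13 of the other 59 tested members (22%). An ETS match stood in 4 of those 13 (30.8%) and in 15 of the other 59 (25.4%).

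Gata4 itself averaged 7.97 ± 0.18 in G4D TAC and 7.80 ± 0.23 in wild-type TAC, and 7.85 ± 0.09 in G4D sham and 8.11 ± 0.15 in wild-type sham (log2, SD), and it did not pass the limma test between genotypes (adjusted p = 0.556 after TAC and 0.611 in sham). Whether its probe set reads the deleted exon is not known here, so it does not check the labels. Each array correlated with the rest of its group at 0.969 to 0.990. G4D TAC replicate 4, G4D sham replicate 5 and wild-type TAC replicate 4 stood apart for several members. Values without these 3 arrays, a choice made after seeing the data, are given beside some of the results they move. Since the members' own values set these arrays apart, falls that grow without them are no added support. The 10 cardiomyocyte markers averaged 12.41 ± 0.04 in G4D TAC and 12.48 ± 0.04 in G4D sham, and 12.45 ± 0.02 in wild-type TAC and 12.48 ± 0.02 in wild-type sham. Other cell types were also read. Of 10 fibroblast markers 5 were called higher and 1 lower after TAC in each genotype. Of 10 macrophage and myeloid markers 10 were called higher in G4D and 9 in wild type. Over all tested genes 13.2% were called higher and 9.32% lower in G4D, and 5.19% higher and 2.16% lower in wild type. In bulk samples, fewer cells of a type and less RNA per cell cannot be told apart.

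The probe sets of the members were among the brightest on the arrays. Their median level was 11.62 on the log2 scale, beside 6.49 over all tested genes, and 77 of the 88 lay at or above the 95th percentile of all probe sets. Uqcrb, a small subunit of complex III, had the highest value of all probe sets on 16 of 21 arrays. Quantile normalization gives that top value, 13.07, to all such arrays, so Uqcrb could not be compared among them. Only 11 members lay below 9, and these were 6 assembly factors together with Cox4i2, Cox6b2, Cox7c, Cox8c and Ndufa4l2, of which Cox7c was the dimmest (4.75). Brightness differs between probes and does not rank the transcripts.

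After TAC in G4D hearts, 16 of the 88 members fell and 1, Cox6a1, rose, relative to G4D sham. The falls were small, from -0.39 for Cox7a1 to -0.16 for Ndufa7 on the log2 scale. The share called lower was 18.2% of the members, beside 9.32% of all tested genes, and the share called higher was 1.14%, beside 13.2%. The change was below 0 in 81 of 88 members, beside 53.8% of all tested genes. Its median was -0.14 over the members and -0.02 over all tested genes, while in the values as deposited the members' median was 0.15 and that of all genes 0.31. The scale therefore sets the sign, and all changes given here are relative to the other genes on quantile-normalized arrays: relative to the median of all genes, the members' median was -0.16 in the values as deposited. On that deposited scale 0 of the 16 falls passed the test and 12 of the 16 genes had values above 0. In 4 members the samples of the groups did not overlap and TAC was lower (Sdha, Sdhc, Atp5a1 and Ndufa1), beside 3.38% of all genes.

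**Figure D1:**
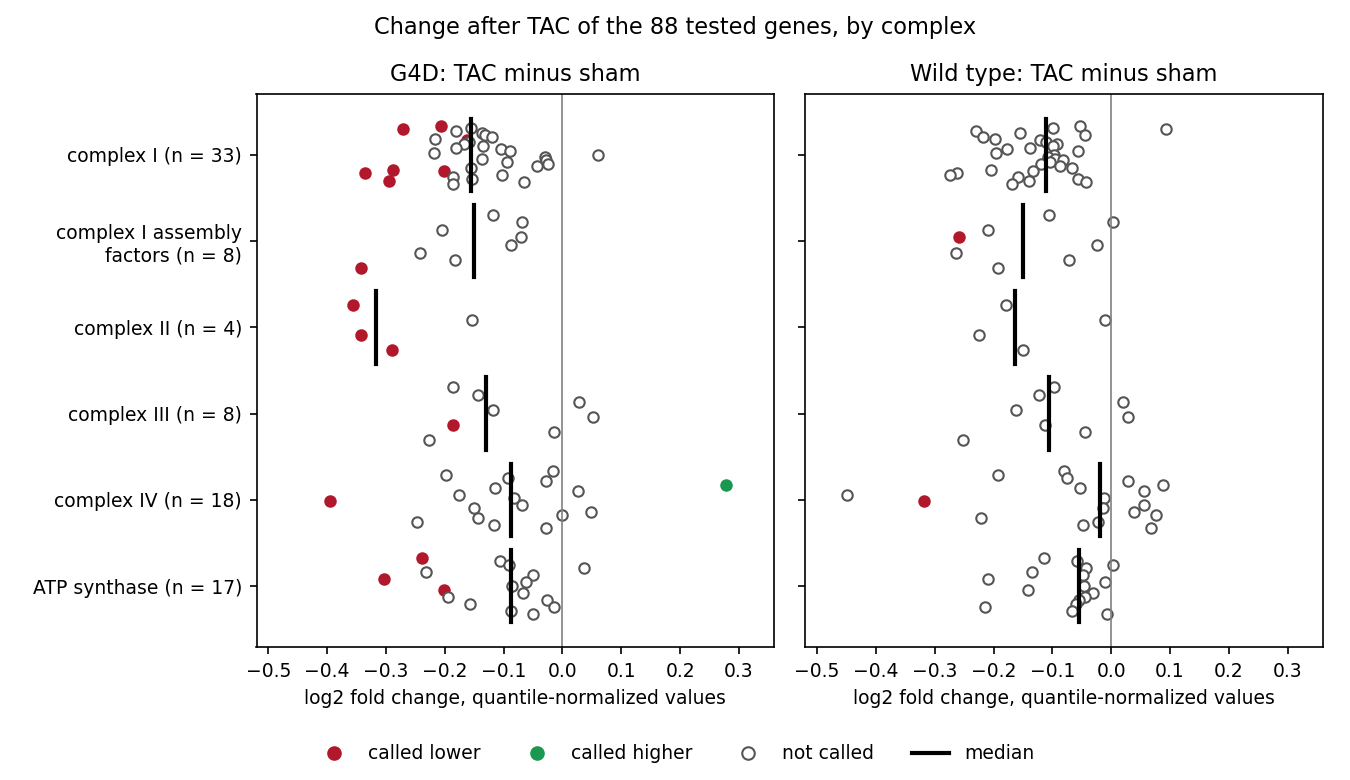
Log2 fold change of each of the 88 tested members after TAC relative to sham in G4D (left) and wild type (right), by complex, from quantile-normalized values, with filled points for members that passed the test and a bar at each median. In G4D 81 of 88 members and in wild type 76 of 88 lay below 0, beside 53.8% and 54.6% of all tested genes. In the values as deposited, however, the G4D median of the members was above 0 (0.15).

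Complex II showed the highest share of falls in G4D, 3 of 4 subunits, beside 9.32% of all tested genes, with a median of -0.32. Sdha, the flavoprotein that oxidises succinate, ran from 11.05 to 11.45 in G4D TAC hearts (median 11.31), against 11.87, 11.74, 11.53, 11.54 and 11.53 in G4D sham hearts. Every G4D TAC sample was below every G4D sham sample, and the change was -0.36 ± 0.09 (log2, SE), with an adjusted p of 0.00523 by limma. Sdhc, a membrane anchor that binds coenzyme Q with Sdhd, ran from 10.30 to 10.59 in G4D TAC (median 10.36), against 10.76, 10.80, 10.67, 10.75 and 10.84 in G4D sham. These groups did not overlap either, with a change of -0.34 ± 0.10 (limma adjusted p = 0.0175). Sdhd, the other anchor, ran from 10.54 to 11.02 in G4D TAC (median 10.72), against 11.18, 11.13, 11.11, 10.87 and 10.90 in G4D sham, and the groups overlapped. Its change was -0.29 ± 0.10 (limma adjusted p = 0.0468). The iron-sulfur subunit Sdhb ran from 11.99 to 12.34 in G4D TAC (median 12.16) and was 12.33, 12.37, 12.30, 12.26 and 12.26 in G4D sham. It did not pass the test (-0.15 ± 0.06, limma adjusted p = 0.0914). Without the 3 arrays that stood apart Sdhb passed (-0.20, limma adjusted p = 0.0275), which is no added support.

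In complex I, which takes electrons from NADH, 7 of 33 subunits fell in G4D (21.2%, beside 9.32% of all tested genes). Of the 33 values 32 lay below 0, and the median was -0.15. Of the 6 core subunits tested, which carry the flavin and the iron-sulfur clusters or hold the site for coenzyme Q, 3 fell (Ndufv1, Ndufs1 and Ndufs3). Ndufv1, which binds NADH and the flavin, ran from 11.06 to 11.41 in G4D TAC (median 11.22), against 11.55, 11.59, 11.56, 11.46 and 11.40 in G4D sham. Only the highest TAC sample reached the lowest sham sample, and the change was -0.30 ± 0.07 (limma adjusted p = 0.0029). Ndufs1, the large iron-sulfur subunit, ran from 10.77 to 11.24 in G4D TAC (median 11.03), against 11.46, 11.38, 11.22, 11.19 and 11.31 in G4D sham, with some overlap and a change of -0.29 ± 0.09 (limma adjusted p = 0.0192). Ndufs3, a core subunit near the coenzyme Q site, changed by -0.20 ± 0.07 (limma adjusted p = 0.0374).

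Of the 27 accessory subunits of complex I, 4 fell in G4D (Ndufs4, Ndufa12, Ndufa1 and Ndufa7), which is 14.8%, beside 9.32% of all tested genes. Ndufs4, which is needed to attach the NADH-binding part and is a known disease gene in humans, ran from 10.11 to 10.69 in G4D TAC (median 10.29), against 10.76, 10.67, 10.59, 10.62 and 10.58 in G4D sham. The groups overlapped, and the change was -0.34 ± 0.09 (limma adjusted p = 0.00861). Ndufa1, a small membrane subunit required for assembly, ran from 11.59 to 11.89 in G4D TAC (median 11.74), against 11.91, 11.96, 11.91, 12.10 and 11.92 in G4D sham, without overlap (-0.21 ± 0.07, limma adjusted p = 0.0393). Ndufa12 changed by -0.27 ± 0.10 (limma adjusted p = 0.0471), but the call was lost without the 3 arrays that stood apart (-0.20, limma adjusted p = 0.176). Its probe set carries a suffix for cross-hybridisation. Of its 3 other sets, the bright ones gave -0.11 and -0.15 (limma unadjusted p = 0.136 and 0.109), and a dim one at a log2 level of 6.69 gave 0.11 (limma unadjusted p = 0.674). At the other end, Ndufb3 had the highest value of complex I, 0.06 ± 0.08 (limma adjusted p = 0.614).

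Among the 8 assembly factors of complex I, which are not part of the finished enzyme, all values lay below 0 in G4D and 1, Ndufaf8, passed the test. This share of 12.5% was close to the 9.32% of all tested genes called lower. Ndufaf8 ran from 8.93 to 9.64 in G4D TAC (median 9.04), against 9.42, 9.32, 9.79, 9.49 and 9.33 in G4D sham. The highest TAC sample, replicate 4, lay above 4 of the 5 sham samples, and the change was -0.34 ± 0.11 (limma adjusted p = 0.0322), or -0.48 without the 3 arrays that stood apart (limma adjusted p = 0.00074). Replicate 4 is 1 of these arrays, so the larger fall of Ndufaf8 is no added support. Ndufaf2 was nearest to 0, at -0.07 ± 0.09 (limma adjusted p = 0.63).

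**Figure D2:**
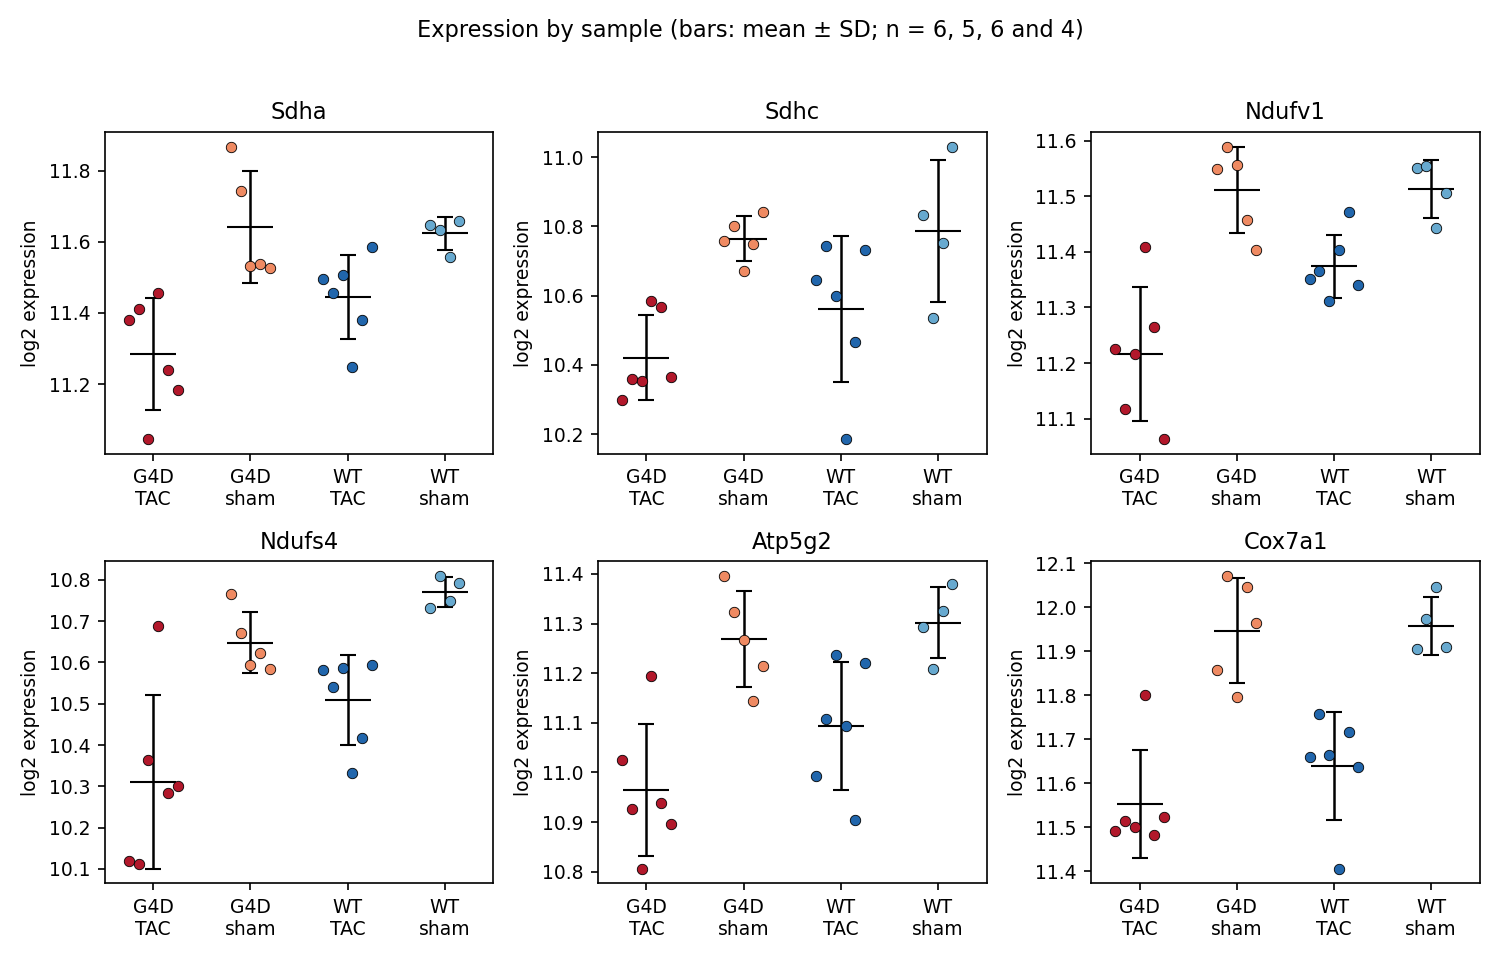
Quantile-normalized log2 level of 6 members in each sample, with points for samples and bars for the mean ± SD, in the order G4D TAC, G4D sham, wild-type TAC and wild-type sham. Sdha and Sdhc do not overlap between G4D TAC and G4D sham, and Cox7a1 does not overlap between wild-type TAC and wild-type sham, although in the values as deposited Sdhc, Ndufv1, Ndufs4 and Atp5g2 were slightly above 0 after TAC in G4D.

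In complex III, 1 of 8 members fell in G4D (12.5%, close to the 9.32% of all tested genes) and the median was -0.13. This was Uqcrfs1, the Rieske iron-sulfur protein that passes electrons to cytochrome c1. It ran from 11.58 to 11.90 in G4D TAC (median 11.75), against 11.96, 12.05, 11.94, 11.88 and 11.83 in G4D sham, with overlap at the edge (-0.19 ± 0.07, limma adjusted p = 0.0495). Uqcrq, a small subunit near cytochrome b, had the lowest value of the complex, -0.23 ± 0.08, and did not pass (limma adjusted p = 0.0514). Without the 3 arrays that stood apart Uqcrq passed (-0.30, limma adjusted p = 0.00539), which is no added support. The core protein Uqcrc2 stood at 0.05 ± 0.08 (limma adjusted p = 0.678).

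In ATP synthase, 3 of 17 members fell in G4D (17.6%, beside 9.32% of all tested genes), 16 of 17 values lay below 0 and the median was -0.09. Atp5g2, which encodes the c subunit of the rotating ring, ran from 10.81 to 11.19 in G4D TAC (median 10.93), against 11.40, 11.32, 11.27, 11.14 and 11.21 in G4D sham. The groups overlapped in the top of the TAC range, and the change was -0.30 ± 0.08 (limma adjusted p = 0.0084). Atp5a1, the alpha subunit of the catalytic head, ran from 12.03 to 12.28 in G4D TAC (median 12.21), against 12.44, 12.50, 12.38, 12.41 and 12.39 in G4D sham. There was no overlap, and the change was -0.24 ± 0.07 (limma adjusted p = 0.0156). Atp5j, the coupling factor 6 of the stalk, changed by -0.20 ± 0.07 (limma adjusted p = 0.0326), and Atp5d, the delta subunit, by 0.04 ± 0.07 (limma adjusted p = 0.744).

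In complex IV, 1 of 18 members fell and 1 rose in G4D (5.56% each), and the median was -0.09. Both shares were below those of all tested genes, 9.32% lower and 13.2% higher. Cox7a1, the muscle isoform of subunit VIIa, had the largest fall of all members. It ran from 11.48 to 11.80 in G4D TAC (median 11.51), against 11.86, 12.07, 11.80, 12.04 and 11.96 in G4D sham. Of the 6 G4D TAC samples 5 lay at 11.48 to 11.52, and replicate 4, at 11.80, was the one that reached the sham range. The change was -0.39 ± 0.08, a fold of 0.761 (limma adjusted p = 0.00102), and it was -0.44 without the 3 arrays that stood apart (limma adjusted p = 0.00016). Replicate 4, where Cox7a1 was high, is 1 of these arrays, so the larger fall is no added support. Its widely expressed partner Cox7a2 ran from 11.98 to 12.28 in G4D TAC (median 12.23), against 12.22, 12.28, 12.08, 12.37 and 12.30 in G4D sham, and did not pass the test (-0.07 ± 0.08, limma adjusted p = 0.561).

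Cox6a1, the widely expressed isoform of subunit VIa, was the one member that rose. It ran from 10.76 to 11.05 in G4D TAC (median 10.95), against 10.59, 10.56, 10.76, 10.62 and 10.68 in G4D sham, with the groups touching at 10.76. The change was 0.28 ± 0.08, a fold of 1.21 (limma adjusted p = 0.0147), and it also passed the test in the values as deposited. On that scale the median of all genes was 0.31 and only 50 of 2252 calls over all genes were lower, so calls of a rise are favoured there. The muscle isoform Cox6a2 ran from 12.16 to 12.37 in G4D TAC (median 12.27) and was 12.40, 12.42, 12.44, 12.46 and 12.20 in G4D sham (-0.11 ± 0.07, limma adjusted p = 0.281). Its 1 low sham sample was replicate 5, and without the 3 arrays that stood apart the change was -0.18 (limma adjusted p = 0.0715). The muscle isoform Cox8b changed by -0.14 ± 0.08 (limma adjusted p = 0.197), and the widely expressed Cox8a stood at 0.00 with an SE of 0.10 (limma adjusted p = 0.996).

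The other named members of complex IV did not pass in G4D. Cox4i1, the main isoform of subunit IV, changed by -0.02 ± 0.07 (limma adjusted p = 0.896), and Cox4i2, known as an isoform induced by low oxygen, by -0.20 ± 0.15 (limma adjusted p = 0.367). Ndufa4, once counted to complex I and now to complex IV, changed by -0.12 ± 0.07 (limma adjusted p = 0.23). Its relative Ndufa4l2 changed by -0.03 ± 0.10 (limma adjusted p = 0.873), and Cox7a2l, which takes part in joining complexes III and IV, by -0.15 ± 0.10 (limma adjusted p = 0.296).

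The log2 ratio of a muscle isoform to its partner was then taken within each array, where a shift of the whole array cancels, and compared with two-sided exact permutation tests. Because the probes differ, only differences in a ratio between groups carry meaning. Cox7a1 over Cox7a2 averaged -0.63 ± 0.14 in G4D TAC and -0.30 ± 0.06 in G4D sham (SD, n = 6 and 5), a difference of -0.33 without overlap of the samples (exact p = 0.00433, adjusted over 16 tests 0.0693). In wild type the same ratio averaged -0.65 ± 0.17 after TAC and -0.28 ± 0.12 after sham (n = 6 and 4), a difference of -0.37 (exact p = 0.0143, adjusted 0.0762). The ratio was thus lower after TAC in both genotypes by more than the SD of any group, but passed only before adjustment. Without the 3 arrays that stood apart the differences were -0.37 in G4D (exact p = 0.0159) and -0.33 in wild type (exact p = 0.0238, both adjusted 0.127).

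Cox6a2 over Cox6a1 averaged 1.35 ± 0.16 in G4D TAC and 1.74 ± 0.14 in G4D sham, a difference of -0.39 (exact p = 0.00866, adjusted 0.0693), or -0.44 without the 3 arrays (exact p = 0.0159, adjusted 0.127). In wild type it averaged 1.46 ± 0.23 after TAC and 1.60 ± 0.16 after sham (-0.14, exact p = 0.319). Cox8b over Cox8a averaged 1.57 ± 0.12 in G4D TAC and 1.71 ± 0.13 in G4D sham (-0.14, exact p = 0.0909), and 1.59 ± 0.19 in wild-type TAC and 1.88 ± 0.09 in wild-type sham (-0.30, exact p = 0.0286, adjusted 0.114). Cox4i2 over Cox4i1, whose first gene is dim, differed by -0.18 in G4D (exact p = 0.29) and -0.11 in wild type (exact p = 0.371). None of the 16 tests passed after adjustment, and none of the 8 between genotypes fell below an exact p of 0.0556. The smallest exact p the designs allow is 0.00216 for G4D after TAC and 0.00476 for wild type after TAC. In the values as deposited 5 of the 16 passed after adjustment, with the same direction: Cox6a2 over Cox6a1 in G4D (-0.554, adjusted p = 0.0173) and, in both genotypes, Cox7a1 over Cox7a2 and Cox8b over Cox8a (exact permutation tests).

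**Figure D3:**
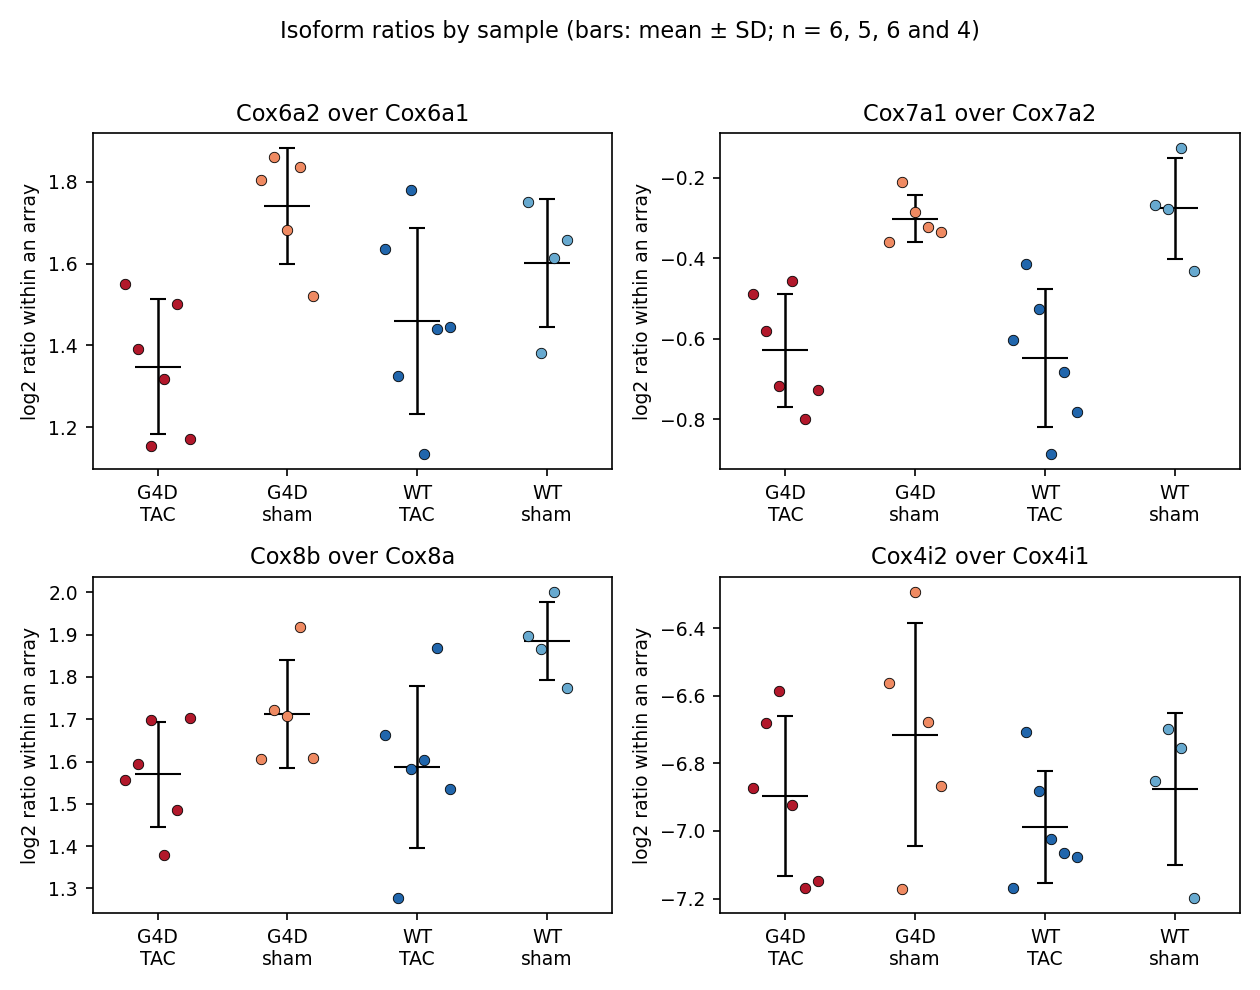
Within-array log2 ratio of muscle to widely expressed isoform (and of Cox4i2 to Cox4i1) in each sample, with points for samples and bars for the mean ± SD, in the order G4D TAC, G4D sham, wild-type TAC and wild-type sham. Cox7a1 over Cox7a2 does not overlap between G4D TAC and G4D sham but overlaps between TAC and sham in wild type. The other ratios overlap between TAC and sham in both genotypes.

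In wild-type hearts 2 members fell after TAC, Cox7a1 and Ndufaf4. This was 2.27% of the members, beside 2.16% of all genes called lower, so the share of falls was close to that of all genes. No member was called higher, beside 5.19% of all genes. The change was below 0 in 76 of 88 members, beside 54.6% of all genes, with a median of -0.10 over the members and -0.02 over all genes. The lowest value, -0.45, was that of Cox6b2, a dim member that did not pass (limma adjusted p = 0.133). Cox7a1 ran from 11.41 to 11.76 in wild-type TAC (median 11.66), against 11.90, 11.97, 12.04 and 11.91 in wild-type sham, without overlap. The change was -0.32 ± 0.08, a fold of 0.802 (limma adjusted p = 0.0237). The call was lost when any of wild-type sham 2, wild-type sham 3 or wild-type TAC 4 was left out, with adjusted p up to 0.0849, and with the actin difference in the fit (0.216). Without the 3 arrays that stood apart it was kept (-0.27, limma adjusted p = 0.0251).

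Ndufaf4, an assembly factor of complex I, ran from 8.80 to 9.20 in wild-type TAC (median 8.91), against 9.20, 9.19, 9.26 and 9.11 in wild-type sham, and the groups overlapped. The change was -0.26 ± 0.08 (limma adjusted p = 0.0445), and the call was lost in 9 of 10 fits that left out 1 array of these groups and without the 3 arrays that stood apart (-0.23, limma adjusted p = 0.1). In G4D it was -0.07 ± 0.07 (limma adjusted p = 0.522), while a second, dimmer set of Ndufaf4 changed by -0.27 in G4D (limma unadjusted p = 0.0208) and -0.34 in wild type (limma unadjusted p = 0.00813). In 8 members, Ndufs4, Ndufs5, Ndufs8, Ndufa7, Ndufa13, Ndufb2, Atp5mpl and Cox7a1, every wild-type TAC sample was below every wild-type sham sample, beside 4.12% of all genes. By complex, the wild-type medians were -0.16 for complex II, -0.15 for the assembly factors, -0.11 for complexes I and III, -0.05 for ATP synthase and -0.02 for complex IV.

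The brightest probe sets of the 3 subunits of complex II that fell in G4D were not called in wild type, but for Sdha the probe sets differ. Sdha ran from 11.25 to 11.59 in wild-type TAC (median 11.48), against 11.65, 11.63, 11.56 and 11.66 in wild-type sham (-0.18 ± 0.09, limma adjusted p = 0.298). Sdhc ran from 10.19 to 10.74 in wild-type TAC (median 10.62), against 10.83, 10.54, 10.75 and 11.03 in wild-type sham (-0.23 ± 0.11, limma adjusted p = 0.244). Both ranges overlapped. A second bright probe set of Sdha changed by -0.36 in wild type (limma unadjusted p = 0.000261), close to its -0.41 in G4D. Ndufv1 changed by -0.14 ± 0.07 in wild type on its brightest set (limma adjusted p = 0.286), and by -0.26 on both of its other sets, which are nearly as bright (limma unadjusted p = 0.00382 and 0.00733). Ndufs4 changed by -0.26 ± 0.09 in wild type (limma adjusted p = 0.102) and Cox6a1 by 0.09 ± 0.08 (limma adjusted p = 0.632). Over the 16 members that fell in G4D, the wild-type median was -0.15, from -0.32 to 0.09, and 15 of 16 were below 0.

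The difference between the genotypes' responses was tested itself, and no member passed, beside 0.0151% of all genes. At an unadjusted p under 0.05 there was 1 member, Ndufa12 (-0.36 ± 0.14, limma adjusted p = 0.446), which is 1.14% of the members, beside 8.36% of all genes (1110 of 13279). The median difference was -0.04 over the members and 0.01 over all genes. For Sdha the difference was -0.18 ± 0.13 (limma adjusted p = 0.761), for Ndufv1 -0.16 ± 0.10 (limma adjusted p = 0.714) and for Cox7a1 -0.08 ± 0.12 (limma adjusted p = 0.925). These values move with the probe set: the second bright set of Sdha gave a difference of -0.06, and the other sets of Ndufv1 gave -0.01 and -0.11. With SEs of this size the responses of the genotypes are not shown to differ for any member, nor to be alike.

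G4D was also set against wild type within each operation. After TAC no member passed the limma test, beside 3.36% of all genes, and 7 had an unadjusted p under 0.05 (Ndufa12, Ndufa7, Ndufb11, Ndufb2, Ndufs4, Ndufv1 and Cox5b). These were 7.95% of the members, beside 13.4% of all genes (1784 of 13279). Of 88 values 75 lay below 0, beside 51.4% of all genes, with a median of -0.07 over the members and -0.01 over all genes. The lowest was Ndufa12, at -0.24 ± 0.09 (limma adjusted p = 0.199). Atp5h, a subunit of the stator stalk, ran from 12.02 to 12.12 in G4D TAC (median 12.07), against 12.13 to 12.23 in wild-type TAC (median 12.16), and was the 1 member with no overlap, beside 0.836% of all genes.

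After sham operation no member passed the limma test either, beside 0.0527% of all genes, and Ndufaf4 was the 1 member with an unadjusted p under 0.05 (-0.18 ± 0.08, limma adjusted p = 0.572), beside 1074 of all 13279 genes (8.09%). The median was -0.04 over the members and -0.01 over all genes, and 64 of 88 members lay below 0, beside 52.1% of all genes. In 4 members the samples did not overlap and G4D was lower (Ndufb11, Ndufb2, Ndufaf4 and Cox4i1), beside 1.66% of all genes. Ndufb11, a subunit of the membrane arm of complex I, was 11.92, 11.84, 11.89, 11.85 and 11.85 in G4D sham, against 12.02, 12.01, 11.98 and 12.05 in wild-type sham. Cox7a1 stood at -0.01 ± 0.09 in sham (limma adjusted p = 0.99) and at -0.09 ± 0.08 after TAC (limma adjusted p = 0.732).

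Averaged over the 88 members in each sample, the deviation from the wild-type sham mean was -0.17 ± 0.07 in G4D TAC (SD), -0.04 ± 0.03 in G4D sham, -0.10 ± 0.04 in wild-type TAC and 0.00 ± 0.02 in wild-type sham. Within G4D TAC it ran from -0.24 in replicate 6 to -0.05 in replicate 4, and within wild-type TAC from -0.18 in replicate 4 to -0.07. Replicate 4 of G4D TAC was the highest of its group, and replicate 4 of wild-type TAC the lowest of its group. Complex II stood at -0.27 ± 0.12 in G4D TAC, 0.02 ± 0.08 in G4D sham, -0.14 ± 0.12 in wild-type TAC and 0.00 ± 0.11 in wild-type sham. Complex I stood at -0.21 ± 0.08 in G4D TAC, -0.06 ± 0.02 in G4D sham, -0.12 ± 0.05 in wild-type TAC and 0.00 ± 0.02 in wild-type sham.

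**Figure D4:**
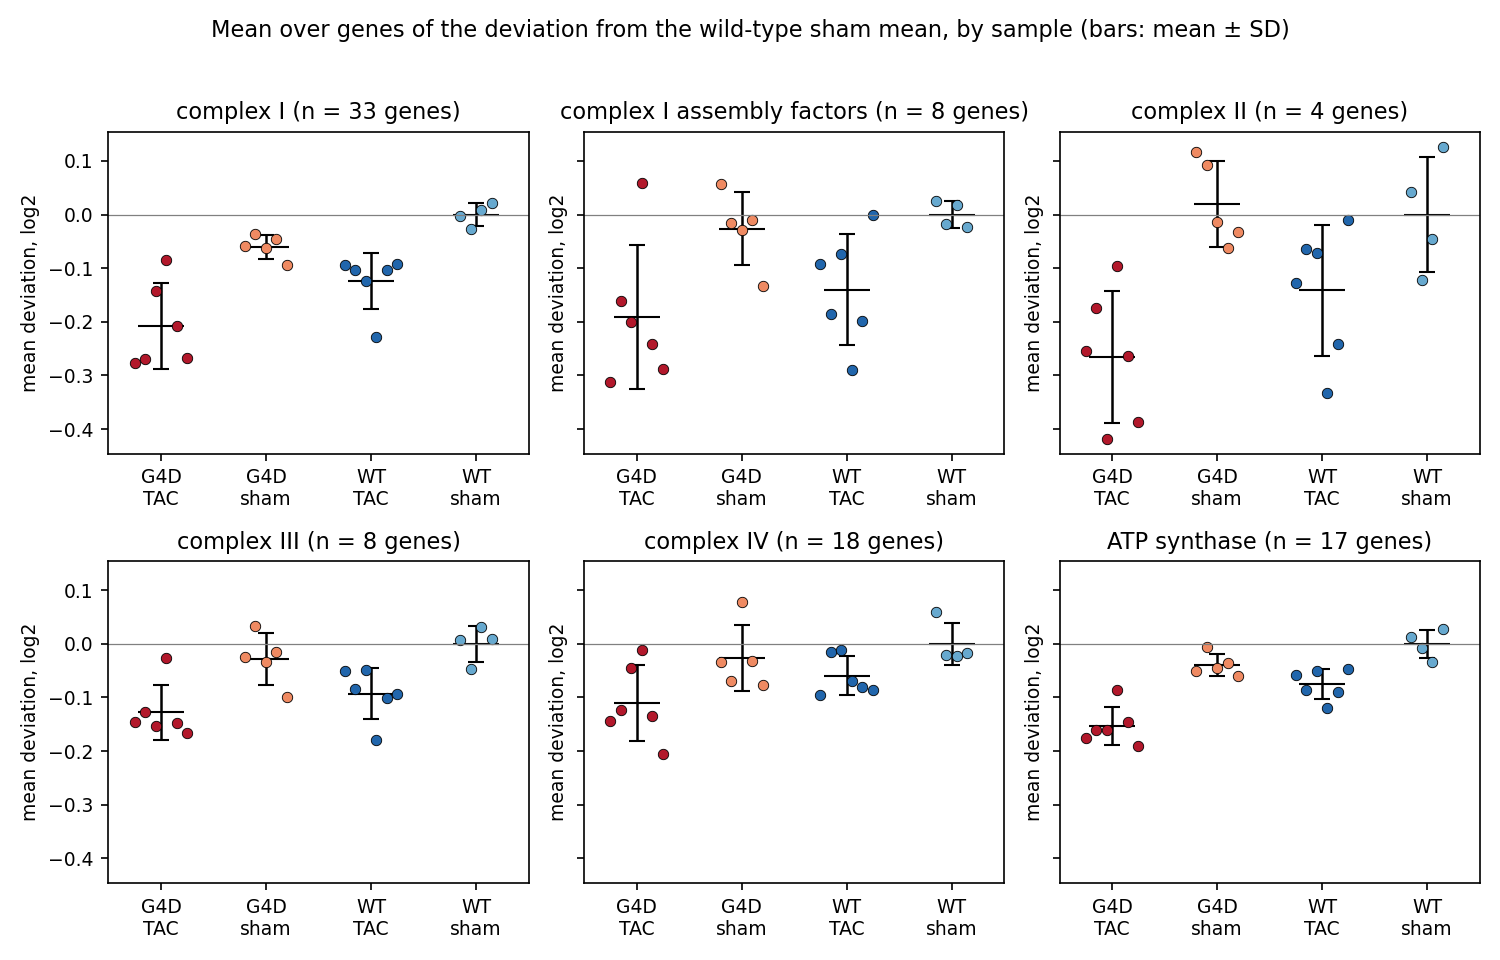
Mean over the members of each complex of the log2 deviation from the wild-type sham mean, for each sample, with bars for the group mean ± SD, in the order G4D TAC, G4D sham, wild-type TAC and wild-type sham. Complex II in G4D TAC averages -0.27, and these deviations are of quantile-normalized values, since in the values as deposited the G4D median after TAC was above 0 (0.15).

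Signs of RNA quality and markers of other cells also differed between TAC and sham. The actin control's 3-prime minus 5-prime difference was 0.25 ± 0.08 in G4D TAC and 0.46 ± 0.10 in G4D sham, and 0.32 ± 0.11 in wild-type TAC and 0.52 ± 0.10 in wild-type sham, without overlap of TAC and sham in either genotype. The same difference for the Gapdh control was -0.18 ± 0.10 in G4D TAC and -0.33 ± 0.07 in G4D sham, and -0.21 ± 0.08 in wild-type TAC and -0.17 ± 0.19 in wild-type sham, so in G4D it lay the other way, with overlap of the groups. With the actin difference as a term in the fit, 7 members were called in G4D, Sdha and Cox7a1 among them (limma adjusted p = 0.0169 and 0.0348). The mean of the 10 fibroblast markers was 10.08 ± 0.22 in G4D TAC and 9.21 ± 0.31 in G4D sham, and 9.75 ± 0.28 in wild-type TAC and 9.03 ± 0.05 in wild-type sham. The mean of the 10 macrophage and myeloid markers was 8.20 ± 0.21 in G4D TAC and 7.52 ± 0.17 in G4D sham, and 8.36 ± 0.29 in wild-type TAC and 7.63 ± 0.06 in wild-type sham. Of the 10 cardiomyocyte markers, Tnni3 and Pln were called lower in G4D, beside 9.32% of all tested genes, and none was called in wild type. Of 5 atrial cardiomyocyte markers tested, Kcnj3 and Stard10 were called lower and Nppa higher in G4D, and in wild type Nppa alone was called, as higher. The mean of the atrial markers was 7.55 ± 0.48 in G4D TAC and 8.23 ± 1.67 in G4D sham, where it reached 11.20 in replicate 5, and 7.52 ± 0.11 in wild-type TAC and 7.68 ± 0.39 in wild-type sham. Among the other lists, the calls in G4D were Cd34 (of 10 endothelial markers), Cspg4 and Des (of 7 of smooth muscle and pericytes), all higher, and Upk3b (of 2 epicardial), Myh2 (of 2 of skeletal muscle), Slc4a1 (of 3 erythroid) and Ppara (of 4 of brown adipocytes), all lower. Over all tested genes 13.2% were called higher and 9.32% lower in G4D. In wild type the calls of these lists were Pecam1, Cd34 and Cspg4, all higher, beside 5.19% of all tested genes. Ppara is also among the regulators of mitochondrial biogenesis read below, so its fall does not read brown adipocytes alone. None of 2 lymphocyte and 3 white adipocyte markers was called in G4D. The part of these cells in the changes of the members was not tested. Leaving out the 3 arrays that stood apart gave 30 calls in G4D in place of 17, of which 29 were lower, while the lower calls over all genes were 1539 in place of 1237. The members' own values set these arrays apart, so the larger count is no added support. Ndufa12 and Ndufs3 lost their call in that fit (limma adjusted p = 0.176 and 0.0532).

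Of the 17 members called in G4D, 8 kept their call in every fit that left out 1 array of these groups: Sdha, Sdhc, Ndufv1, Ndufs4, Atp5a1, Atp5g2, Cox7a1 and Cox6a1. Of the other 9, Ndufs1 lost it in 1 of the 11 fits, and the remaining 8 lost it in 6 (Ndufaf8), 7 (Sdhd, Atp5j, Ndufa1 and Ndufs3), 8 (Ndufa12 and Uqcrfs1) or 9 (Ndufa7) of them. Besides the probe set that represents each of the 17, these members had 23 others, of which 21 had the same sign and none of the 2 opposite ones had an unadjusted p under 0.05. Some of these sets gave smaller changes: the second set of Sdhd changed by -0.09 in G4D (limma unadjusted p = 0.373) and that of Atp5a1 by -0.11 (limma unadjusted p = 0.0886).

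Other genes of the pathway were read from lists chosen with earlier results of these data known. Of 12 genes of coenzyme Q synthesis, the carrier that complexes I and II reduce, 6 fell and none rose after TAC in G4D, with a median of -0.26, and 2 fell in wild type (Coq2 and Coq7). Of all tested genes, 9.32% were called lower and 13.2% higher in that comparison, and 2.16% were called lower in wild type. Coq2, which attaches the side chain to the ring, averaged 8.64 ± 0.07 in G4D TAC and 9.01 ± 0.09 in G4D sham, a change of -0.37 ± 0.07 (limma adjusted p = 4e-04). It averaged 8.88 ± 0.10 in wild-type TAC and 9.12 ± 0.05 in wild-type sham, a change of -0.24 ± 0.07 (limma adjusted p = 0.0372). Coq2 was also lower in G4D than in wild type after TAC (-0.23 ± 0.06, limma adjusted p = 0.0431). Coq9, which binds lipids of the pathway, changed by -0.40 ± 0.09 in G4D (limma adjusted p = 0.00382).

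Of 23 regulators of mitochondrial biogenesis and shape, 8 fell and 1 rose after TAC in G4D, with a median of -0.24, and 1, Esrra, fell in wild type (-0.32 ± 0.09, limma adjusted p = 0.0381). The shares over all tested genes were 9.32% lower and 13.2% higher in G4D and 2.16% lower in wild type. Nrf1 averaged 4.93 ± 0.27 in G4D TAC and 5.62 ± 0.46 in G4D sham, close to the filter, a change of -0.68 ± 0.18 (limma adjusted p = 0.00754). Ppara, the receptor that drives genes of fatty acid oxidation, averaged 7.72 ± 0.22 in G4D TAC and 8.34 ± 0.17 in G4D sham (-0.62 ± 0.12, limma adjusted p = 0.000634). Esrrg, an estrogen-related receptor, changed by -0.50 ± 0.08 in G4D (limma adjusted p = 0.000201), and Pprc1, a coactivator, rose by 0.46 ± 0.13 (limma adjusted p = 0.0128). Ppargc1a, the best known coactivator of this group, did not pass (-0.72 ± 0.33, limma adjusted p = 0.119).

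Of 37 assembly factors outside the rule, 7 fell and 2 rose after TAC in G4D, beside 9.32% of all tested genes lower and 13.2% higher, with a median of -0.11. Surf1, needed to build complex IV, changed by -0.39 ± 0.10 (limma adjusted p = 0.00917), and Uqcc1, of complex III, by -0.35 ± 0.11 (limma adjusted p = 0.02). Ttc19, also of complex III, fell in both genotypes, with changes of -0.33 ± 0.10 in G4D (limma adjusted p = 0.0207) and -0.36 ± 0.10 in wild type (limma adjusted p = 0.0431). Cox19, a copper-linked factor of complex IV, averaged 9.46 ± 0.16 in G4D TAC and 8.84 ± 0.28 in G4D sham, a rise of 0.62 ± 0.11 (limma adjusted p = 0.000496), and was higher in G4D than in wild type after TAC (0.49 ± 0.11, limma adjusted p = 0.0136). None of the 8 carriers of adenine nucleotides, phosphate and the outer membrane was called in any comparison, nor were cytochrome c and cytochrome c1 (2 genes) or the 1 of 13 mitochondrially encoded subunits that was tested, though at their median changes of 0.01, -0.01 and -0.06 in G4D no equality is shown.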

How the data were processed

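Total RNA of 21 samples in 4 groups was read on Affymetrix mouse arrays, 1 per sample. The authors deposited log2 signals of 45101 probe sets, made with PLIER per the submitters' processing notes, whose background and scaling steps are not given in the sources used here. Deposited array medians ran from 4.31 to 5.33. Here the 64 control probe sets were left out and the log2 values were quantile normalized in limma 3.58.1 (R 4.3.3). Probe sets with 1 symbol in the platform annotation (34945, against 932 with several and 9160 with none) and a mean at or above the 40th percentile (4.35) were kept, and the brightest stood for its gene. This left 13279 of 18193 genes. All 21 arrays entered 1 limma fit of the 4 group means (lmFit and eBayes, 17 residual degrees of freedom), with Benjamini-Hochberg adjustment over all tested genes and a call at an adjusted p under 0.05. A fold change was computed from the difference of the log2 means, and the limma fit was tested on simulated data. Normalization, filter and probe set choice were not part of that test. Isoform ratios were compared with two-sided exact permutation tests, adjusted over 16.

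The members and lists were chosen with earlier results of these data known. Named were the isoform pairs, Sdha to Sdhd, Ndufa4, Ndufa4l2 and Cox7a2l, and up to 12 members called in a comparison (the others are mentioned in counts or chosen after their values were seen). Also named were the largest rise and fall in each complex after TAC in G4D, and up to 4 called genes of a pathway list. Replicate numbers were shared by the groups, but deviations from the group means correlated between same-numbered samples at -0.36 to 0.42, over 0.1 in 9 of 28 pairs, so the numbers were not taken to pair samples. No 2 arrays held identical values. The number of arrays limits the precision. Alternatives changed the normalization, filter, probe set choice, samples, replicate block and an RNA quality term.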

Additional observations from a re-analysis of the deposited data

Results flagged for a closer look

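In 164 groups of 4 to 6 samples (41 named members), 13 held 1 sample far from the others by Dixon's test, of which chance gives about 1 in 20 groups. In G4D TAC replicate 4, Cox7a1 (11.8, against 11.48 to 11.52 in the other samples), Ndufaf2 (8.35, against 7.96 to 8.06), Ndufaf8 (9.64, against 8.93 to 9.13) and Ndufs5 (10.9, against 10.46 to 10.58) were high and Uqcrc2 (11.6, against 11.72 to 11.76) was low. In wild-type TAC replicate 4, Cox7a1 (11.4, against 11.64 to 11.76), Ndufs5 (10.3, against 10.57 to 10.74) and Atp5mpl (10.8, against 10.90 to 10.93) were low. In G4D sham replicate 5, Cox6a2 (12.2, against 12.40 to 12.46), Ndufa4l2 (6.61, against 6.89 to 6.97) and Uqcrb (12.8, against 13.07) were low. Uqcrb was also below the shared top value of 13.07 in G4D TAC replicate 3 (13, 12.96 to 2 decimals) and wild-type sham replicate 1 (12.8). For Uqcrb the other samples are tied by the normalization, so its gaps come from ties. G4D sham replicate 5 also had the highest mean of 5 atrial markers, 11.20.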

How the results depend on the processing

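Array scaling mattered most. In G4D after TAC, 17 members were called; 1 was called in the values as deposited and 1 after median centring (Cox6a1 in both), 10 without suffixed probe sets, 7 with the actin term, 8 with only the 2 groups, 30 without the 3 arrays that stand apart (an alternative chosen after seeing the data) and 9 to 27 with 1 array left out (9 without G4D TAC 6, 27 without G4D TAC 4). Lower calls over all genes numbered 1237, and 50 as deposited, 243 centred, 1028 without suffixed sets, 655 with the actin term, 840 with the 2 groups and 1539 without the 3 arrays. In wild type, 2 members were called. The count was 0 as deposited or centred, and 0 to 2 with 1 array left out. It was 1 without a filter, without suffixed sets, with the actin term, with the 2 groups or without the 3 arrays. Lower calls over all genes in wild type numbered 287, and only 5 as deposited, 24 centred and 40 with the actin term. They numbered 199 without a filter, 219 without suffixed sets, 316 with the 2 groups and 233 without the 3 arrays. The replicate numbers do not pair the samples. With a replicate block 8 were called in G4D and 0 in wild type, where lower calls over all genes numbered 899 and 97. Between genotypes after TAC 0 were called, 1 without the 3 arrays and 0 to 2 with 1 array left out (1, Ndufa12, without G4D TAC 3 and 2 without G4D TAC 4). Calls over all genes in that comparison numbered 446, and 776 without the 3 arrays.

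As deposited, the members' median was 0.15 in G4D (all genes 0.31), -0.279 in wild type (all genes -0.10), -0.402 between genotypes in sham (all genes -0.28), 0.0462 after TAC (all genes 0.14) and 0.435 for the difference of responses (all genes 0.42), so relative to all genes it was -0.16, -0.18, -0.13, -0.09 and 0.01. After centring it was -0.0564, -0.213, -0.25 and, for the difference, 0.163, and without the 3 arrays that difference was -0.0904. Genes above 0 in G4D as deposited were Sdhc 0.0587, Sdhd 0.0912, Ndufaf8 0.0925, Ndufs4 0.0762, Atp5g2 0.0464, Ndufv1 0.0295, Ndufs1 0.046, Atp5j 0.0794, Ndufa1 0.0659, Ndufa7 0.171, Ndufs3 0.106 and Uqcrfs1 0.0809, and Ndufa12 was 0.113 without suffixed sets. The cause was not tested.

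Isoform ratios that passed adjustment as deposited were Cox6a2 over Cox6a1 -0.554 in G4D, Cox7a1 over Cox7a2 -0.274 in G4D and -0.347 in wild type, Cox8b over Cox8a -0.319 in G4D and -0.389 in wild type. Centring shifts a whole array, which cancels in the ratio, so the centred values are the same and no second check. With the mean of all probe sets, Cox6a2 over Cox6a1 (-0.378) and Cox7a1 over Cox7a2 (-0.311) passed in G4D. With 1 array left out the wild-type ratios ran from -0.425 to -0.323 (Cox7a1) and -0.352 to -0.234 (Cox8b). Depth is unknown for arrays; their number limits what these tests can show.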
